A study of Mus musculus with 6 samples.

Results

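The calcium/calmodulin-dependent protein kinase genes were examined in primary mouse renal tubule epithelial cells (RTECs) with and without TGF-β1. The family was taken by name as 10 genes, *Camk1*, *Camk1d*, *Camk1g*, *Camk2a*, *Camk2b*, *Camk2d*, *Camk2g*, *Camk4*, *Camkk1* and *Camkk2*, of 46517 genes in the deposited counts. All of them were found, and 9 had enough reads to enter the test, which covered 15862 genes. The family was chosen on its measured values, because *Camk4* was among the genes that differed most between TGF-β1 and CTL in these same libraries. The members' differences in that comparison are therefore given as a description, without p-values, and so is whether a member was past the threshold in a given fit.

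The libraries came from 3 CTL cultures and 3 cultures treated with TGF-β1 at 50 ng/ml for 24 h, all of wild type kidney cells of the FvB strain. All 6 cultures had first been kept in medium without serum for 24 h. TGF-β1 is a cytokine used to evoke a profibrotic response in cultured tubule cells. The labels give the mice as 4 to 6 weeks old, and the study's methods give a slightly younger range. The study's methods describe primary cultures of digested kidney, passed through a mesh and not sorted, so that other kidney cells could be carried along. In such bulk RNA, more cells of a type and more RNA per cell cannot be told apart.

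Reads on genes summed to between 28313080 and 34183497 per library, and 3 counts corresponded to between 0.0878 and 0.106 CPM, the counts scaled by the library's total. No pair of libraries matched within sampling noise, the smallest chi-square per degree of freedom being 9.02. Cultures with the same replicate number deviated together from their group means, and both cultures numbered 2 stood apart from the other 4. Transcripts of 4 Y-linked genes summed to 154 CPM in CTL replicate 2 and 136 CPM in TGF-β1 replicate 2 and to at most 0.177 CPM elsewhere, whereas the methods name male mice for all cultures. The summed level of 6 tubule epithelium markers ranged from 959 to 2551 CPM in CTL and from 839 to 2107 CPM in TGF-β1 cultures, and was lowest in number 2 in both groups, and 2 of them passed the test as lower with TGF-β1, *Cdh16* from between 7333 and 9574 to between 2206 and 3366 normalized counts and *Pax8* from between 6090 and 6806 to between 3568 and 4148. The 5 proximal tubule markers summed to between 67.6 and 80.1 CPM in CTL and between 34.6 and 47.4 CPM in TGF-β1, with *Slc5a2* at no more than 3 counts in every library, and 1 of them passed as lower. Most of the sum was *Lrp2*, from between 1980 and 2349 normalized counts in CTL to between 916 and 1326. *Hnf4a* went from between 19.6 and 37.5 to between 5.63 and 14.2. *Cubn* overlapped between groups, at 131 to 151 in CTL and 133 to 168 with TGF-β1. *Slc34a1* had at most 10 counts per library. Among 4 collecting duct markers *Hsd11b2* passed as higher. *Scnn1g* did not pass and went the other way, from between 10.6 and 32.7 normalized counts in CTL to between 4.69 and 10.2 with TGF-β1. *Aqp2* and *Atp6v1b1* had at most 5 counts per library. The 4 markers of the thick ascending limb and distal tubule reached only 1.18 to 3.06 CPM. The 6 fibroblast markers summed to 801 to 2114 CPM in CTL and 762 to 2400 CPM in TGF-β1, highest in number 2, and none of them passed the test between groups. Log2 fold changes without number 2 are given for *Camkk2*, *Camk4*, *Camk2d* and *Camk2g*.

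Calmodulin is the small protein that carries the calcium signal to these kinases: once loaded with calcium it binds a segment of the kinase that otherwise blocks the active site. The kinases are arranged partly as a cascade. The upstream kinases CaMKK1 and CaMKK2 phosphorylate the activation loop of the CaMKI enzymes and of CaMKIV, and CaMKK2 also activates the AMP-activated protein kinase (AMPK). CaMKII works outside this cascade as a large multimer that phosphorylates itself and can stay active after calcium has fallen. CaMKIV, known mostly from neurons, T lymphocytes and testis, resides largely in the nucleus and phosphorylates transcription factors such as CREB.

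Expression of *Camk4* was higher and that of *Camk1* lower in TGF-β1–treated RTECs, and these were the 2 members of 9 tested (22.2%) past an adjusted p-value of 0.05. Among all genes tested 11.7% passed, 5.00% as higher and 6.69% as lower, and since the family was proposed from this comparison nothing is read from the members' count. With the replicate number as a block, *Camk2d* and *Camkk2* also passed, both as lower, which made 4 of 9 members (44.4%) beside 34.2% of all genes. The values of CTL and TGF-β1 cultures did not overlap for *Camk1*, *Camk2b*, *Camk4* and *Camkk2*, again 4 of 9, and for 35.2% of all genes tested. The median log2 fold change was -0.052 over the 9 members and -0.00278 over all genes. Within same-numbered pairs, *Camk1*, *Camk2b*, *Camk2d*, *Camk2g* and *Camkk2* were lower in the TGF-β1 culture in all 3 pairs. For *Camk2g* the log2 ratios were only -0.04, -0.07 and -0.01. *Camk4* alone was higher in all 3 pairs. The share of all genes with 1 direction in all pairs was not computed, so nothing is read from these directions.

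**Figure D1:**
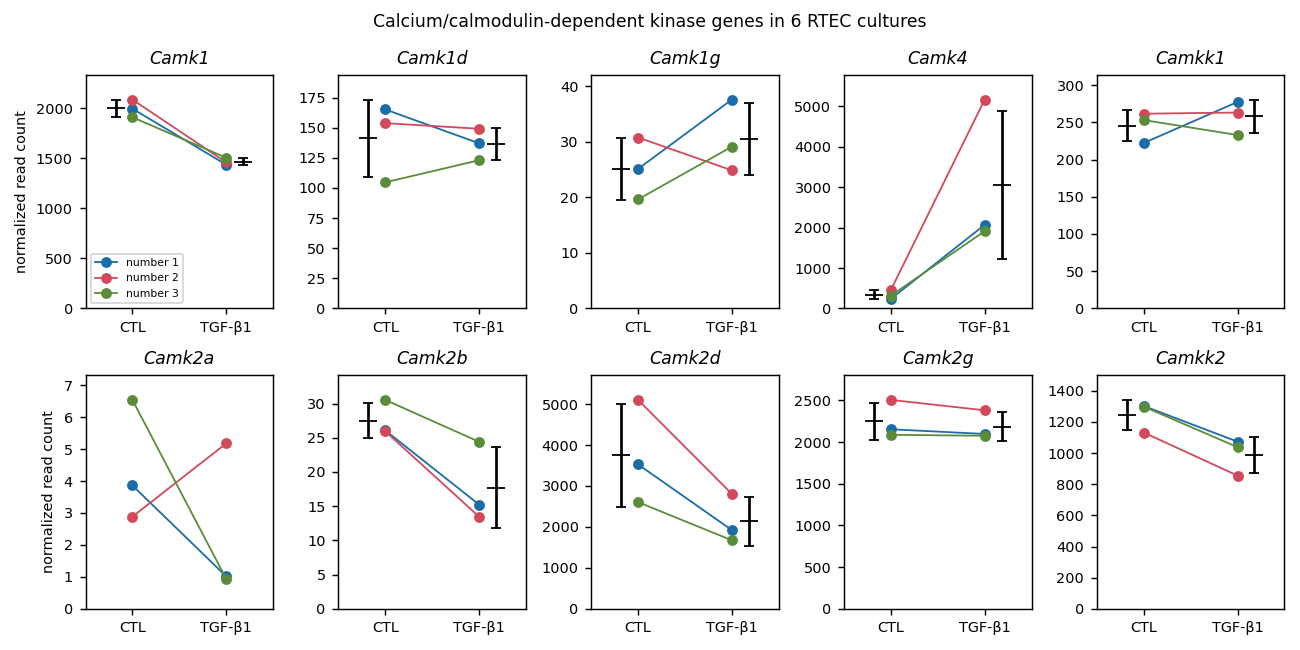
Normalized read counts (y axes, each starting at 0) of the 10 kinase genes in CTL and TGF-β1 cultures (x axes). Points are single cultures, lines join cultures with the same replicate number, and black bars give mean ± SD (n = 3), left out for *Camk2a*, which had at most 6 counts per library. *Camk4* was higher in every TGF-β1 culture, and *Camk1*, *Camk2b*, *Camk2d*, *Camk2g* and *Camkk2* were lower along all 3 lines.

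*Camkk2* encodes the upstream kinase that feeds both the CaMK cascade and AMPK. It occupies chr5:122731170-122779409 of GRCm38, minus strand. It had 1303, 1132 and 1299 normalized counts (reads after TMM scaling to a common library size) in CTL replicates 1, 2 and 3. In TGF-β1 replicates 1, 2 and 3 it had 1074, 855.5 and 1038. Every TGF-β1 culture was below every CTL culture, and number 2 was the lowest in both groups. The means were 1245 ± 97.3 (SD, n = 3) and 989 ± 117 (SD, n = 3), a log2 fold change of -0.33 (SE 0.11), or 1.26-fold lower. The block left the difference at -0.33 and lowered its SE to 0.05, and *Camkk2* passed the threshold there and when both cultures of number 2 were left out (-0.30, SE 0.06). Leaving out single cultures gave -0.39 to -0.24, none of them past the threshold. The call was also absent without both cultures of number 1 (-0.36) or of number 3 (-0.34).

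*Camkk1*, which encodes the second upstream kinase, was at 222, 261 and 253 normalized counts in CTL and at 277, 263 and 233 in TGF-β1 replicates 1, 2 and 3. The groups overlapped. The log2 fold change was 0.07 (SE 0.11), and it took the opposite sign with scaling by library size only (-0.0045).

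*Camk1* encodes CaMKI, a broadly expressed cytoplasmic target of the upstream kinases, and occupies chr6:113334124-113343984, minus strand. Normalized counts of *Camk1* were 1997, 2088 and 1912 in CTL and 1437, 1460 and 1507 in TGF-β1 replicates 1, 2 and 3. The groups were well apart, and within each of them the cultures lay close together. The mean was 1999 ± 88.1 (SD, n = 3) in CTL and 1468 ± 35.5 (SD, n = 3) with TGF-β1. The log2 fold change was -0.45 (SE 0.05), or 1.36-fold lower. It lay between -0.48 and -0.41 when single cultures were left out. It was past the threshold in 5 of these 6 fits, the exception being the fit without CTL replicate 1 (-0.45). The call was also absent without both cultures of number 1 (-0.43) or of number 3 (-0.49). Of the gene's 5975 exonic bases, 232 (3.88%) are shared with *Ogg1* on the other strand, a DNA repair gene whose own log2 fold change was -0.33 (adjusted p = 0.0636, edgeR quasi-likelihood test). Whether the counting used the strand is not given in the sources used here, so how reads on the shared bases were assigned is unknown.

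*Camk1d* and *Camk1g* encode the delta and gamma forms of CaMKI and were expressed at much lower levels. *Camk1d* had 165, 154 and 105 normalized counts in CTL and 137, 149 and 123 in TGF-β1 cultures, and its log2 fold change was -0.05 (SE 0.20). For *Camk1g* the values were 25.1, 30.8 and 19.6 in CTL and 37.6, 24.9 and 29.1 in TGF-β1, with a log2 fold change of 0.27 (SE 0.26). Both genes overlapped between groups, and their same-numbered pairs did not share 1 direction.

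*Camk4* showed the largest difference of the family. The gene occupies chr18:32934931-33191228, plus strand. Its deposited counts were 246, 476 and 290 reads in CTL replicates 1, 2 and 3 and 2036, 4986 and 2036 reads in TGF-β1 replicates 1, 2 and 3. After normalization these were 238, 458 and 316 in CTL and 2068, 5164 and 1912 in TGF-β1. Each TGF-β1 culture lay above each CTL culture, and number 2 was the highest in both groups. The means were 337 ± 111 (SD, n = 3) and 3048 ± 1834 (SD, n = 3), and the log2 fold change was 3.17 (SE 0.49), or 9.03-fold. The 3 same-numbered pairs gave log2 ratios of 3.12, 3.50 and 2.60.

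The SE of *Camk4* fell to 0.17 with the block (log2 fold change 3.10) and to 0.13 without both cultures of number 2 (2.85). Leaving out single cultures gave log2 fold changes between 2.56 and 3.46, past the threshold in 4 of 6 fits. The call was lost when replicate 1 of CTL (2.97) or of TGF-β1 (3.40) was left out. It was also lost when genes with very low counts were kept in the test (3.18). Without both cultures of number 1 (3.19) or of number 3 (3.38) it was absent too. In every one of these fits *Camk4* was higher with TGF-β1.

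Of the cell types in which *Camk4* is best known, T lymphocytes and neurons were examined by their markers, and testis was not. Of 6 T lymphocyte markers, *Cd3d*, *Cd3e*, *Cd3g*, *Cd4* and *Cd8a* had at most 3 counts in every library, *Cd3g* being at 0 in all 6, and the list summed to 1.85 to 3.57 CPM in CTL and 1.76 to 2.18 CPM in TGF-β1 cultures, nearly all of it from *Lck*. The 4 neuron markers summed to 1.34 to 2.76 CPM in CTL and 1.16 to 2.19 CPM in TGF-β1, with *Snap25* at no more than 1 count per library. Most of the sum came from *Syt1* and *Stmn2*. *Syt1* was at 40.6, 67.3 and 28.4 normalized counts in CTL and 21.3, 43.5 and 27.2 in TGF-β1 replicates 1, 2 and 3. It was highest in number 2 in both groups. An antisense transcript, *2310026I22Rik*, shares 72 of the 3259 exonic bases of *Camk4* (2.21%), and it had no reads in 4 libraries and at most 4.14 normalized counts in the other 2.

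The CaMKII enzyme is encoded by *Camk2a*, *Camk2b*, *Camk2d* and *Camk2g*. The alpha and beta forms prevail in brain, and the delta and gamma forms occur in most tissues, which was also the order of levels in RTECs. *Camk2d* had 3527, 5102 and 2605 normalized counts in CTL and 1922, 2806 and 1673 in TGF-β1 replicates 1, 2 and 3. The groups overlapped, and the CTL culture of number 3 was below the TGF-β1 culture of number 2. Within pairs the log2 ratios were -0.88, -0.86 and -0.64. The means were 3745 ± 1263 (SD, n = 3) and 2134 ± 595 (SD, n = 3), with a log2 fold change of -0.81 (SE 0.30), or 1.76-fold lower. With the block the difference was -0.80 and its SE fell to 0.06, past the threshold. Without both cultures of number 2 it was -0.77 (SE 0.16), also past the threshold, as it was with DESeq2. Leaving out single cultures gave -1.06 to -0.52 (the latter without CTL replicate 2), none past the threshold, and the call was also absent without both cultures of number 1 or of number 3.

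*Camk2g* barely differed. Its normalized counts were 2153, 2505 and 2086 in CTL and 2096, 2380 and 2075 in TGF-β1 replicates 1, 2 and 3, and its log2 fold change was -0.04 (SE 0.09), with the opposite sign (0.044) when CTL replicate 2 was left out. Without both cultures of number 2 the log2 fold change was -0.02 (SE 0.05). *Camk2b* was at 26.1, 26.0 and 30.5 normalized counts in CTL and at 15.2, 13.5 and 24.4 with TGF-β1. These groups did not overlap, but on about 13 to 28 reads per library the log2 fold change of -0.62 had an SE of 0.28. *Camk2a* had 4, 3 and 6 reads in CTL and 1, 5 and 1 in TGF-β1 libraries, too few to test, and no difference was detectable at this depth.

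**Figure D2:**
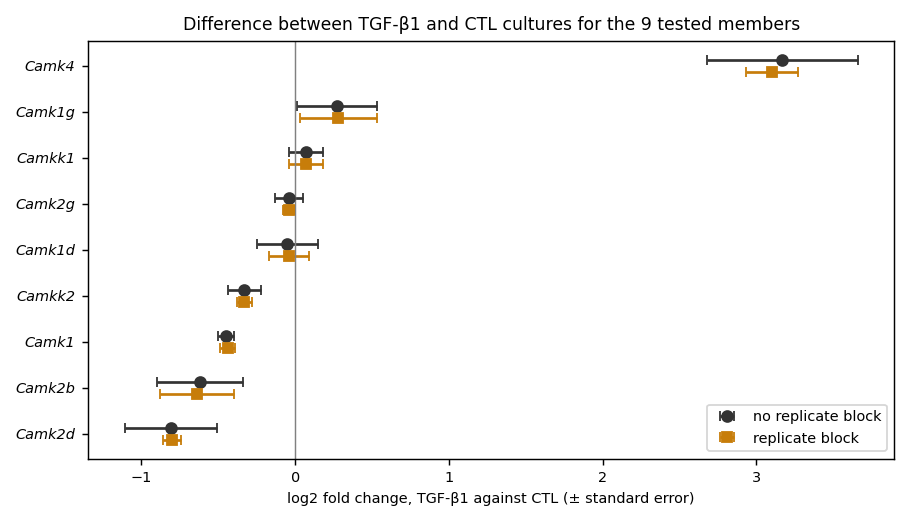
Log2 fold change of TGF-β1 against CTL (x axis, ± standard error from edgeR) for the 9 tested members (y axis), without (circles) and with (squares) the replicate number as a block. *Camk4* stands alone at 3.17, and the block narrows the error most for *Camk4* (0.49 to 0.17) and *Camk2d* (0.30 to 0.06).

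The promoters of *Camk2d*, *Camkk2* and *Camk1* are shown because these 3 members were past the threshold as lower with the block. RefSeq promoter windows of 300 bases on GRCm38.p6 matched 7 of the 10 members and not *Camk4*, *Camk2a* and *Camk2g*. Each window is printed in the direction of transcription with capitals marking matches, on either strand, to the GC box GGGCGG, whose reverse strand reads CCGCCC, to the short CRE site TGACG or to the Smad box CAGAC. *Camk2d* is at chr3:126596701-126597000 on the plus strand, *Camkk2* at chr5:122779361-122779660 on the minus strand and *Camk1* at chr6:113343873-113344172 on the minus strand.
Camk2d: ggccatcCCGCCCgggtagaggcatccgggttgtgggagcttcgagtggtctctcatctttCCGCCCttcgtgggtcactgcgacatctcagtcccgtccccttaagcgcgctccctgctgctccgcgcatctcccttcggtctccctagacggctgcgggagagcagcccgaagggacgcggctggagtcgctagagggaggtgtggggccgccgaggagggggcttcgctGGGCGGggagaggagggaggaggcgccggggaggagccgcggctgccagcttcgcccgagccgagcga
Camkk2: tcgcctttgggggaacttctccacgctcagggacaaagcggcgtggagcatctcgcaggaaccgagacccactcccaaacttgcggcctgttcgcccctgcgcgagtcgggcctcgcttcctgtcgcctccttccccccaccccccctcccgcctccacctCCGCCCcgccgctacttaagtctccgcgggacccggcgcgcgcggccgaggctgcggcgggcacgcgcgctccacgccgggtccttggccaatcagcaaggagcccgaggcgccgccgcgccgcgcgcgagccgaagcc
Camk1: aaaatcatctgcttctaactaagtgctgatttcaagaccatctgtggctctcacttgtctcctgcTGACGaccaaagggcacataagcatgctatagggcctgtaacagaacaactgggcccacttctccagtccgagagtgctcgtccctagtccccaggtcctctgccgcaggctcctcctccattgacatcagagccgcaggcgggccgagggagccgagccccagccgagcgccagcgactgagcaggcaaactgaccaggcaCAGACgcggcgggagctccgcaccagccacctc
The G and C content of these windows was 70.3% for *Camk2d*, 73.3% for *Camkk2* and 60.0% for *Camk1*, against a median of 52.7% over all 32851 promoters. *Camk2d* held 3 GC boxes and *Camkk2* held 1, and neither contained the short CRE site or the Smad box. *Camk1* held 1 short CRE site and 1 Smad box and no GC box, so that none of the searched motifs was common to all 3. Over all promoters, the GC box occurred in 35.7%, the short CRE site in 20.8% and the Smad box in 49.6%. The full CRE site TGACGTCA, which contains the short one and occurred in 1.79% of promoters, was in none of the members' windows. The AP-1 site TGANTCA (7.81% of promoters) was also in none of them, and the RBPJ core TGGGAA (25.6%) and the E-box CAGGTG (20.2%) were in none of the 3 windows shown. These matches are letters in a window and say nothing of binding.

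To compare levels between members, counts were divided by the length of each gene's exons and expressed as TMM-scaled CPM per kb. In CTL cultures *Camk2g* (11.1 ± 1.11, SD, n = 3) and *Camk1* (10.6 ± 0.466) led, with a log2 ratio within libraries of 0.07 ± 0.08, so that the SD over libraries was as large as the gap. *Camk2d* followed at 5.25 ± 1.77, then *Camkk2* at 3.60 ± 0.281 and *Camk4* at 3.26 ± 1.08, and neither of the gaps between these 3 neighbours exceeded its SD. *Camkk1* came next at 2.08 ± 0.175, *Camk1d* at 0.60 ± 0.137, *Camk1g* at 0.288 ± 0.0637 and *Camk2b* at 0.0952 ± 0.00902, each gap in this lower order being larger than its SD. *Camk2a* stood last, at the level of a few reads.

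With TGF-β1 the level of *Camk4* per kb was 20.0, 50.0 and 18.5 in replicates 1, 2 and 3 (29.5 ± 17.8), above every other member in each culture. *Camk2g* followed at 10.8 ± 0.840, *Camk1* at 7.76 ± 0.188, *Camk2d* at 2.99 ± 0.835 and *Camkk2* at 2.86 ± 0.338, the last pair again within their spread. As a share of the summed level of the 10 genes, *Camk4* made up 6.54, 10.7 and 9.06% in CTL and 42.5, 63.2 and 41.2% in TGF-β1 replicates 1, 2 and 3. The share of *Camk1* went from 28.8 ± 2.0% to 14.5 ± 4.2%, that of *Camk2g* from 30.1 ± 0.36% to 19.8 ± 4.3% and that of *Camk2d* from 14.0 ± 3.2% to 5.31 ± 0.38%. A share also moves with the sum, which was 36.9 ± 4.16 in CTL and 57.1 ± 19.1 with TGF-β1. Between the 2 abundant CaMKII genes, *Camk2d* made up 31.6 ± 5.25% of *Camk2d* plus *Camk2g* in CTL and 21.5 ± 3.27% with TGF-β1.

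The order depends on the length used, because annotated exons can exceed the transcript a cell makes. For *Camk2d* the exons of all isoforms span 22493 bases and the longest transcript 5524. With the longest transcript, *Camk1* (32.3%), *Camk2d* (25.6%) and *Camk2g* (23.4%) made up most of the CTL sum. *Camk4* still ranked first in each TGF-β1 culture, at a mean of 35.1%, but its log2 ratio to *Camk1* (0.72 ± 0.81) was then within the SD.

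**Figure D3:**
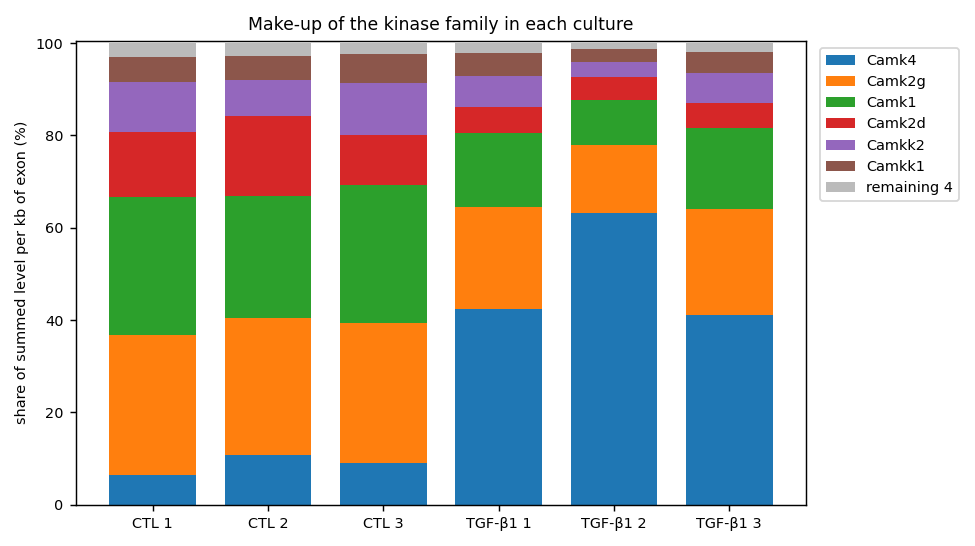
Share of each kinase gene in the summed level of the 10 genes, in percent per kb of exon (y axis), for each of the 6 cultures (x axis). Segments are single genes, with *Camk1d*, *Camk1g*, *Camk2a* and *Camk2b* joined as the remaining 4. *Camk4* goes from 6.54 to 10.7% in CTL to 41.2 to 63.2% in TGF-β1 cultures.

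The replicate number was tested as a separate contrast that the choice of the family did not use, in a fit with group and number. Same-numbered cultures may share an animal or a day, and each number has only 2 cultures, so this test speaks of these 6 libraries. *Camk2d*, *Camk4*, *Camk2g* and *Camkk2* differed by number, 4 of 9 members (44.4%) beside 18.1% of all genes. The adjusted p-values (edgeR quasi-likelihood F test) were 0.000286 for *Camk2d*, 0.0128 for *Camk4*, 0.0322 for *Camk2g* and 0.0416 for *Camkk2*. For *Camk1*, *Camk1d*, *Camk1g*, *Camk2b* and *Camkk1* they lay between 0.191 and 0.847.

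For each of these 4 genes number 2 was at 1 end of both groups. *Camk2d* in number 2 was 1.66 times the mean of numbers 1 and 3 in CTL and 1.56 times with TGF-β1. *Camk4* was 1.65 times that mean in CTL and 2.60 times with TGF-β1. *Camk2g* stood at 1.18 and 1.14 times and *Camkk2* at 0.871 and 0.810 times. *Camk2d* was called in all 6 fits that left out 1 culture, whereas without TGF-β1 replicate 1 it was the only member called and without CTL replicate 1 only *Camk2d* and *Camk4* were.

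Some markers of cell types also set number 2 apart. The epithelial adhesion gene *Epcam* in number 2 was 0.274 times the mean of numbers 1 and 3 in CTL and 0.250 times with TGF-β1, and *Cdh1*, encoding E-cadherin, was at 0.286 and 0.305 times. The fibrillar collagen gene *Col1a1* was 2.79 and 2.63 times that mean and the mesenchymal receptor gene *Pdgfrb* 2.68 and 2.37 times. Other genes of the same lists did not follow: the epithelial *Pax8* was at 6704, 6806 and 6090 normalized counts in CTL replicates 1, 2 and 3, and the fibroblast marker *Pdgfra* was lowest in number 2 in both groups, at 27.9 in CTL and 20.7 with TGF-β1. The part of such cells in the number 2 values of *Camk2d* and *Camk4* was not tested. Number 2 also stood apart in its Y-linked transcripts, and the source of its cells cannot be told apart from the replicate number. Without number 2 the log2 fold change of TGF-β1 against CTL was -0.77 for *Camk2d* and 2.85 for *Camk4*. These values test neither the cell make-up nor the source of number 2. Both calls were absent without both cultures of number 1 or of number 3.

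**Figure D4:**
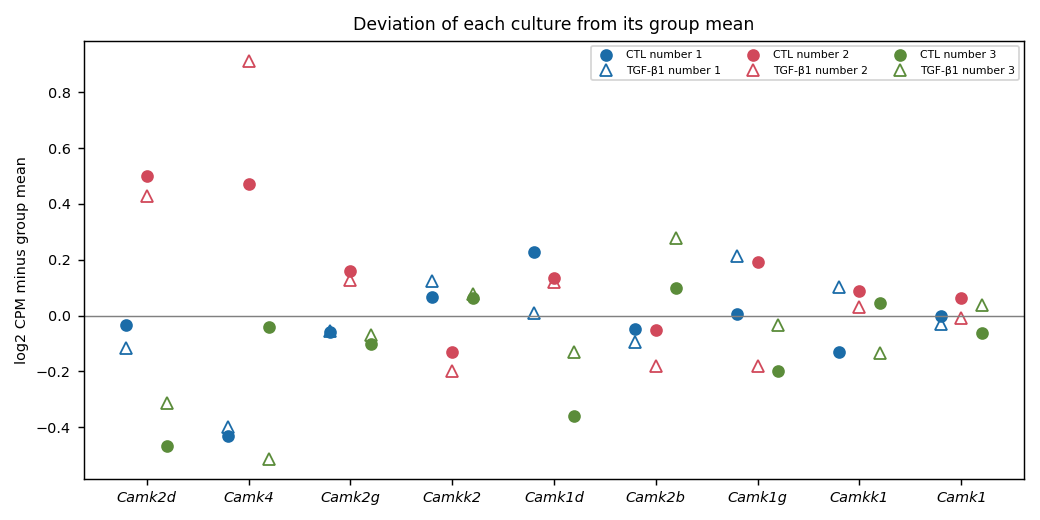
Deviation of each culture from the mean of its own group, as log2 CPM (y axis), for the 9 tested members (x axis) ordered by the adjusted p-value of the replicate number, from 0.000286 at the left to 0.847 at the right. Circles are CTL and triangles TGF-β1 cultures, coloured by number. Both cultures of number 2 lie at the top for *Camk2d*, *Camk4* and *Camk2g* and at the bottom for *Camkk2*.

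The other genes of the pathway were taken as 7 lists by role, 146 genes in all, of which 122 were tested. Of these, at the adjusted p-value of 0.05 TGF-β1 cultures showed 11 rises and 12 falls (18.9%, beside 11.7% of all genes). With the block 24 rose and 34 fell (47.5%, beside 34.2%). The lists were chosen with earlier results of these data known, so nothing is read from these shares. Of the 23 genes past the threshold without the block, 6 passed in each of the 6 fits that left out 1 culture. Among these 6 were *Dclk3*, *Rcan2*, *Fos*, *Hdac9* and *Cacna1g*. The calls rested most on replicate 1. Without CTL replicate 1 these 6 were the only ones of the 23 to pass, and without TGF-β1 replicate 1 there were 8. Among the fits that left out 1 culture, *Ppp3ca* passed in 0 of 6 and *Dapk1*, *Pde4d*, *Orai2* and *Cacnb2* in 1. *Mylk*, *Hdac7*, *Stim2* and *Cacnb4* passed in 2 of 6. All adjusted p-values below are from edgeR's quasi-likelihood test over all genes.

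Among calmodulin, its buffers and the CaMKII inhibitors, 2 of 9 tested genes rose and 1 fell (4 passed with the block). *Calm2* and *Calm3* encode calmodulin itself. *Calm2* was at 10161 ± 207 and 10105 ± 350 normalized counts in CTL and TGF-β1 (SD, n = 3; adjusted p = 0.939), and *Calm3* at 9650 ± 525 and 9087 ± 591 (adjusted p = 0.470). Reads shared with near-identical copies were not counted, so the levels of calmodulin genes may be too low. *Camk2n1*, encoding an inhibitor protein of CaMKII, rose by 0.32 (SE 0.04, adjusted p = 0.00891). The calmodulin-like gene *Calml4* fell from 24.3 ± 2.63 to 6.66 ± 1.30 normalized counts (SD, n = 3), a log2 fold change of -1.85 (SE 0.25, adjusted p = 0.0107).

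Of 15 tested kinases that are calmodulin-regulated or related to the family, 1 rose and 3 fell (7 passed with the block). *Stk17b*, a kinase related to death-associated protein kinases, went from 1134, 1283 and 1149 normalized counts in CTL to 2566, 3939 and 2570 with TGF-β1 (log2 fold change 1.35, SE 0.18, adjusted p = 0.0119). *Dclk3*, a doublecortin-like kinase, fell from 2382, 2511 and 2121 to 1154, 1055 and 1070 (-1.10, SE 0.08, adjusted p = 0.00216). In *Mylk*, which encodes myosin light chain kinase, the change was -0.79 (SE 0.14, adjusted p = 0.0239). *Dapk1* fell by 0.24 on the log2 scale (SE 0.05, adjusted p = 0.0397).

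Phosphatases oppose or parallel these kinases; calcineurin, itself activated by calmodulin, dephosphorylates the NFAT transcription factors. Of the 14 tested genes of this list, 2 rose and 1 fell (7 passed with the block). *Rcan2*, encoding a regulator of calcineurin, fell from 3386, 3344 and 3133 normalized counts in CTL to 1186, 866 and 1264 with TGF-β1 (log2 fold change -1.57, SE 0.14, adjusted p = 0.00415). *Nfatc1* rose by 0.68 (SE 0.10, adjusted p = 0.0130). The catalytic calcineurin subunit gene *Ppp3ca* rose by 0.22 (SE 0.05, adjusted p = 0.0354), a call that was lost in each of the 6 fits with 1 culture left out.

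Among transcriptional targets of the cascade, CREB factors, their co-activators and genes known to respond early to CREB showed 1 rise and 1 fall among 23 tested (8.70%; 7 passed with the block). *Fos*, an immediate early gene, fell from 447, 537 and 496 normalized counts to 239, 239 and 227 (log2 fold change -1.07, SE 0.09, adjusted p = 0.00379). *Pde4d*, encoding a phosphodiesterase that degrades cAMP, rose by 0.57 (SE 0.13, adjusted p = 0.0432).

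CaMKs also phosphorylate class IIa histone deacetylases, which then leave the nucleus and release Mef2 factors. In this small list, 2 of 6 tested genes rose and 2 fell. *Hdac9* rose in every pair, from 856, 737 and 844 normalized counts in CTL to 3038, 2805 and 2759 with TGF-β1 (log2 fold change 1.82, SE 0.08, adjusted p = 0.000816). The related *Hdac5* fell by 0.57 (SE 0.08, adjusted p = 0.0128) and *Hdac7* by 0.54 (SE 0.11, adjusted p = 0.0337). *Mef2d* rose by 0.32 (SE 0.06, adjusted p = 0.0232).

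In the AMPK arm downstream of CaMKK2, 1 of 11 tested genes passed, and with the block 3 did. It was *Prkaa2*, encoding a catalytic subunit of AMPK, which fell from 1967, 1755 and 1753 normalized counts to 1300, 1103 and 1378 (log2 fold change -0.53, SE 0.10, adjusted p = 0.0223).

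Genes for calcium entry, release and removal formed the longest list, with 3 rises and 3 falls among 44 tested (13.6%) and a median log2 fold change of -0.23. With the block 10 rose and 16 fell. *Cacna1g*, encoding a T-type voltage-gated calcium channel, went from 4644, 3907 and 3774 normalized counts in CTL to 12843, 10200 and 9784 with TGF-β1 (log2 fold change 1.41, SE 0.13, adjusted p = 0.00429). *Stim2* (0.49, SE 0.10, adjusted p = 0.0322) and *Orai2* (0.31, SE 0.06, adjusted p = 0.0311) of the store-operated entry pathway rose. The calcium channel beta subunit genes *Cacnb2* (-1.51, SE 0.34, adjusted p = 0.0410) and *Cacnb4* (-1.16, SE 0.20, adjusted p = 0.0191) fell, at no more than 55 reads per library, as did the IP3 receptor gene *Itpr1* (-0.45, SE 0.08, adjusted p = 0.0214).

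**Figure D5:**
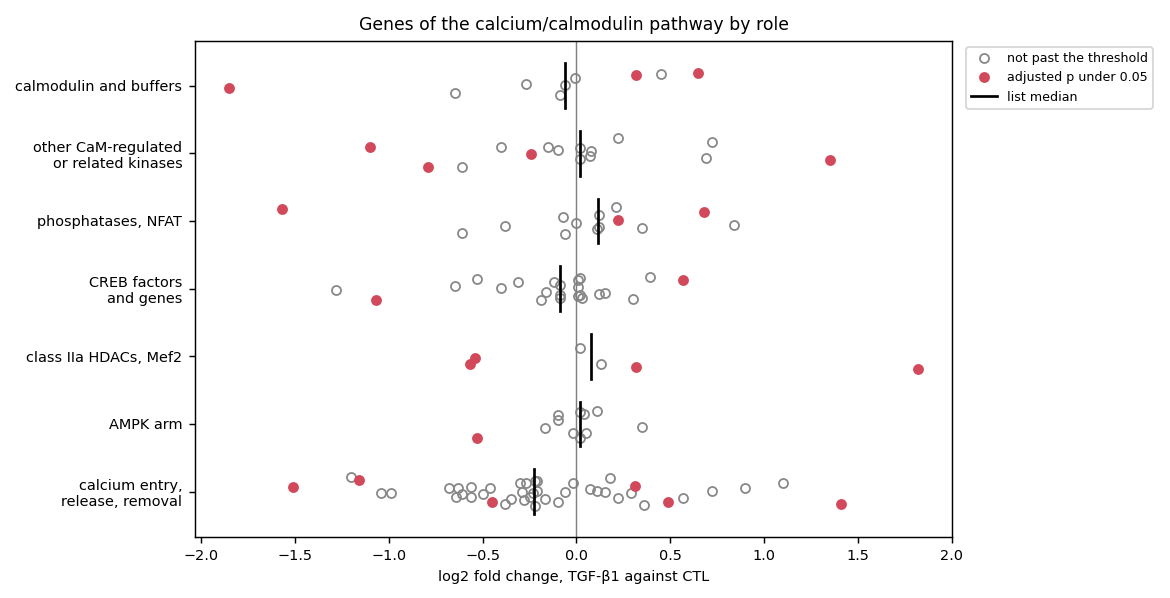
Log2 fold change of TGF-β1 against CTL (x axis) for the 122 tested genes of the 7 role lists (y axis). Filled points passed an adjusted p-value of 0.05, open points did not, and black ticks are list medians; vertical scatter within a list carries no value. The filled points lie on both sides of 0 in every list but the AMPK arm, where *Prkaa2* alone passed.

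The genes whose profile over the 6 libraries lay closest to that of *Camk4* were *Il11*, *Pcdh8*, *Col5a3*, *Col8a2* and *Thbs2*. Likeness was measured as the root mean square distance between log2 CPM profiles, each centred on its own mean. It was 0.23 for *Il11*, a cytokine gene, 0.25 for the protocadherin gene *Pcdh8*, 0.34 and 0.38 for the collagen chain genes *Col5a3* and *Col8a2*, and 0.39 for *Thbs2*, encoding thrombospondin 2. The median distance of all other tested genes was 1.60, which is about that of a gene with a flat profile, since *Camk4* itself lay 1.59 from its own mean. Like *Camk4*, all 5 were higher in each TGF-β1 culture than in any CTL culture and highest in number 2 among the TGF-β1 cultures. Since the 5 genes were picked by their likeness to *Camk4* over these libraries, nothing is read from this. *Il11* had 597, 970 and 660 normalized counts in CTL and 6270, 9400 and 4375 in TGF-β1 replicates 1, 2 and 3.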

How the data were processed

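RNA sequencing of 6 primary RTEC cultures was analysed, 3 CTL and 3 TGF-β1, grouped by their labels. The authors deposited raw read counts per gene. Per the submitters' processing notes and the study's methods, reads were trimmed (Trim Galore), aligned to GRCm38 (STAR 2.4.1d) and counted (HTSeq 0.6.1). Reads with several alignments or on several genes are listed apart from the gene counts. The strand setting and annotation release are not given in the sources used here. Reads assigned to no gene (25.4 to 25.9%) were left out of library sizes. Intervals and floors from counts cover counting error only.

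Identifiers matched the GENCODE M21 annotation of GRCm38 for 46005 of 46517 genes. Counts were tested in R 4.3.3 with edgeR 4.0.16 (filterByExpr, TMM, robust glmQLFit, two-sided glmQLFTest), adjusted by Benjamini-Hochberg across the 15862 genes tested and called under 0.05. Normalized counts are TMM-scaled to a common size of 31685910 reads. The main fit has no replicate block, since the study compares groups without pairing. Deviations from group means correlated at 0.445, 0.738 and 0.648 for same-numbered cultures and at -0.688 to 0.289 for the others. Between numbers 1 and 3 they were positive too, at 0.204 and 0.289. By chi-square per degree of freedom CTL replicate 1 was closer to TGF-β1 replicate 3 (64.8) than to TGF-β1 replicate 1 (70.7). The pairing by number was thus less clear for number 1. The labels and methods do not say whether the cultures came from separate animals. Y-linked transcripts summed to 154 CPM in CTL replicate 2, 136 CPM in TGF-β1 replicate 2 and at most 0.177 CPM elsewhere. Number 2 therefore did not share its source of cells with the other cultures. Whether those others came from separate animals was not tested, so p-values measure the spread between these cultures. Standard errors were derived from the F statistic.

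The members and lists were chosen with earlier results of these data known. Named were all members, up to 4 rises and 4 falls per list among genes past the threshold, *Calm2* and *Calm3*, and the 5 profiles closest to *Camk4*; 1 gene that the rule names is not reported here. Marker lists for the collecting duct (9.37 to 21.9 CPM summed in CTL, 29.9 to 57.1 with TGF-β1), other leukocytes (4.68 to 15.0 and 4.84 to 13.5), endothelial cells (0.427 to 1.27 and 0.741 to 1.50) and skeletal muscle (3.09 to 15.1 and 9.15 to 19.4) were also summed. *Hsd11b2* made up most of the collecting duct sum in every library. The count models were tested on simulated data. Alternatives were DESeq2 1.42.0, limma-voom (limma 3.58.1), RLE normalization, library size only, other filters, the replicate block, a threshold of 0.01 and leaving out cultures. Figures were drawn with matplotlib 3.10.9.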

Additional observations from a re-analysis of the deposited data

How the results depend on the processing

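Without the block, 1854 genes passed, and with it 5425; a threshold of 0.01 left 319, and leaving out 1 culture left 295 to 1265. Of the 9 tested members 2 passed, 1 with no filter beyond 1 count, 1 at 0.01, 3 with DESeq2 (*Camk2d* added), 4 with the replicate block and 0 to 2 without single cultures (0 without CTL replicate 1, where edgeR gave 2 at an unadjusted p under 0.05). Chosen after seeing the data, leaving out both cultures of number 1, 2 or 3 gave 0, 4 and 0 members (edgeR, unadjusted 2, 4 and 4); over all genes number 1 gave 0 (1938 unadjusted) and number 3 gave 285. The block changed no call of a named gene other than *Camk2d* and *Camkk2*. Its list counts were 7 for related kinases, 7 for phosphatases, 7 for CREB, 3 for AMPK and 26 for calcium. At 0.01 the counts were 1 for kinases, phosphatases, CREB, deacetylases and calcium each, and 0 for AMPK (2 unadjusted). DESeq2 gave 5 for CREB and 11 for calcium, limma-voom 1 for CREB, and library size only 2 for AMPK. Leaving out 1 culture gave 1 to 4 for calmodulin, 1 to 5 for kinases, 1 to 2 for phosphatases, 1 to 4 for CREB, 1 to 4 for deacetylases, 0 to 1 for AMPK and 1 to 7 for calcium. Without number 1 every list was at 0 (edgeR; unadjusted 3, 5, 3, 1, 4, 1 and 7 in the same order). Without number 2 there were 6 for CREB and 11 for calcium. Without number 3 there was 1 each for calmodulin, kinases, phosphatases, deacetylases and calcium, and 0 for CREB (3 unadjusted) and AMPK (2 unadjusted). All fits that left out cultures hold fewer samples, also the fit without number 2, where 2374 genes passed. The cause of the changed counts was not tested.

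By replicate number 4 members differed, 1 at 0.01 and 1 to 4 without single cultures. Small log2 fold changes turned sign: *Camk1d* to 0.075, 0.013 and 0.020 without single cultures (lowest -0.23) and 0.071 without number 1, *Camk2g* to 0.044 without CTL replicate 2 (lowest without a single culture -0.11), *Camkk1* to -0.0045 with library size only and -0.054 without number 1, and *Calm2* to 0.006 and 0.024 without single cultures (lowest -0.028) and 0.004 without number 1. No replicate-block fit applies to the shares. Without division by length they were, in CTL and TGF-β1, 3.34 and 28.1% for *Camk4*, 36.7 and 20.7% for *Camk2d*, 12.7 and 10.1% for *Camkk2*, and in CTL 22.6% for *Camk2g* and 20.2% for *Camk1*. With the longest transcript they were 4.72 and 35.1% for *Camk4*, 25.6 and 12.8% for *Camk2d*, 32.3 and 21.2% for *Camk1* and 23.4% for *Camk2g* in CTL. Depth limits *Camk2a*, *Camk2b* and *Camk1g*, with at most 37 counts per library.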
